A study of Homo sapiens with 9 samples.

Results

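The genes described here encode YAP, TAZ and the DNA-binding and vestigial-like factors that share their surface on chromatin. They were picked by Entrez number: YAP1 (10413), WWTR1 (25937, which encodes TAZ), TEAD1 (7003), TEAD2 (8463), TEAD3 (7005), TEAD4 (7004), VGLL3 (389136), VGLL4 (9686) and VGLL1. Of these 9 genes, 8 were described among 20575 genes in all, and VGLL1 was not analysed here. RNA-seq values of 9 samples of Huh7, an established human hepatocellular carcinoma (HCC) line, were used. The 3 groups were cells transfected with siControl, siLATS1 or siLATS2, with 3 samples each, harvested 48 h after transfection. All were transient knockdowns in 1 cell line. The labels name no drug for any sample, while the study's text speaks of these RNA data as also including treatment with sorafenib (Srf), a kinase inhibitor used in HCC. Whether these 9 samples received it is not settled by these sources, so the values may be those of treated or untreated cells. In bulk RNA of this kind, fewer cells with an mRNA and less of it per cell cannot be told apart.

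LATS1 and LATS2 are the last kinases of the Hippo pathway. They phosphorylate YAP and TAZ, which then bind 14-3-3 proteins in the cytoplasm or are degraded. Unphosphorylated YAP and TAZ enter the nucleus, where they have no DNA contact of their own and act through TEAD1 to TEAD4. VGLL proteins bind the same TEADs, and VGLL4 is known as a competitor of YAP. In the liver this pathway is known for restraining organ size. Since the kinases act on the proteins, the question put to these RNA data was whether the mRNAs of the factors themselves, or the balance between paralogs, differed after loss of either kinase.

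The siRNAs that define the siLATS1 group are shown because the reading of every comparison starts from them. The study's reagent list gives a pool of 4 siRNAs of 19 bases against LATS1, written below as sense strands, 5′ to 3′. Whether the pool or only its first member was used for these samples is not stated. Capitals mark bases 12 to 18, which pair with the seed of the guide strand.
LATS1 pool siRNA 1: ggugaagucugUCUAGCAa
LATS1 pool siRNA 2: uagcauggauuUCAGUAAu
LATS1 pool siRNA 3: gguaguucgucUAUAUUAu
LATS1 pool siRNA 4: gaaugguacugGACAAACu
On the minus strand of GRCh37 they matched LATS1 at chr6:150001437-150001455, chr6:149997836-149997854, chr6:150001294-150001312 and chr6:150005163-150005181. All 4 sites lay in coding exons, and 0 of the 8 measured YAP, TAZ, TEAD and VGLL genes held an exact match to any of them.

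The knockdown was visible in LATS1 itself. Levels are given throughout in CPM, a gene's reads relative to all counted reads of its sample, scaled by the trimmed mean of M values (TMM), which corrects for library composition. LATS1 (Entrez 9113) stood at 110, 55.2 and 62.9 CPM in siControl replicates 1, 2 and 3, at 27.1, 20.1 and 15.6 CPM in siLATS1, and at 54.7, 78.6 and 51.2 CPM in siLATS2. All siLATS1 samples lay below all others. On the log2(CPM + 1) scale the difference of siLATS1 from siControl was -1.78 ± 0.31 (SE, n = 3 each), with an unadjusted p in limma of 0.000399 and a Benjamini-Hochberg adjusted p of 0.126. LATS2 was not analysed here, so the siLATS2 label was not checked against its target.

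The samples did not stand equally close. The reads recovered from the steps of the CPM values numbered 23548247 to 32193525 per sample. Pearson's r of log2(CPM + 1) across genes, which are not independent replicates, was 0.859 and 0.866 between siControl replicate 1 and the other siControl samples, and 0.959 to 0.995 for all other replicate pairs. A GC index was taken for each sample, the median deviation of the genes in the top quintile of exon GC content minus that of the bottom quintile. It was -2.21 in siControl replicate 1 and between -0.54 and 0.90 on the log2 scale in the other 8 samples. Hepatocyte markers were present in every sample, 9 of 9 at 1 CPM or more, with summed levels of 13797 to 23100 CPM in siControl, 14352 to 18976 in siLATS1 and 12317 to 17007 in siLATS2. Of 9 markers of leukocytes, endothelium, mesenchyme and bile duct, 1 reached 1 CPM in every sample, the bile duct keratin KRT19, at 12.5 to 274 CPM. Their summed level was 18 to 220 CPM in siControl, 104 to 230 in siLATS1 and 128 to 282 in siLATS2, most of it KRT19. CD3E, CDH5 and ACTA2 were at or near 0. CD68 (0.70 to 3.47 CPM) reached 1 CPM in 8 samples, PECAM1 (0.64 to 2.72 CPM) in 7, COL1A1 and COL3A1 in 5 each and PTPRC in 2. The part of KRT19-expressing cells in any difference was not tested.

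The genes lie on several chromosomes of GRCh37, and their exons split into GC-poor and GC-rich members. YAP1 is at chr11:101981178-102104155 on the plus strand, with exons of 43.6% GC. WWTR1 is at chr3:149235022-149454501 on the minus strand (42.3% GC), and TEAD1 at chr11:12695968-12966284 on the plus strand (43.0% GC). VGLL3, at chr3:86925538-87040299 on the minus strand, had the lowest value, 37.5%, and lay with LATS1 (38.6%) in the bottom quintile of tested genes, whose upper bound was 40.8%. TEAD2 is at chr19:49843852-49865714 on the minus strand, TEAD3 at chr6:35441374-35464856 on the minus strand and TEAD4 at chr12:3068496-3149842 on the plus strand. Their exons held 59.1%, 59.6% and 61.3% GC, all in the top quintile, above 57.6%. VGLL4, at chr3:11597543-11812824 on the minus strand, lay between, at 51.9%. Genes annotated on the opposite strand share exonic bases with several members: ATG7 with 22.2% of the exonic bases of VGLL4, CD37 with 10.7% of TEAD2, a long non-coding RNA with 9.95% of YAP1 and WWTR1-AS1 with 9.05% of WWTR1. The kit marks strand, but whether the counting used it is not stated.

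The promoters of the co-activators are shown because the question concerns the factors' own genes, and TEADs recognise the letters CATTCC, or GGAATG on the other strand. RefSeq gives windows of 250 bases before to 50 after each start (GRCh38.p14) for 6 of the members, 12 windows in all. Of these, 1 held the motif on either strand, that of YAP1, beside 14.0% of the 35116 windows of all genes. The 250 bases before each start are given 5′ to 3′ on the gene's strand, with the motif in capitals.
YAP1, chr11:102110197-102110446, plus strand: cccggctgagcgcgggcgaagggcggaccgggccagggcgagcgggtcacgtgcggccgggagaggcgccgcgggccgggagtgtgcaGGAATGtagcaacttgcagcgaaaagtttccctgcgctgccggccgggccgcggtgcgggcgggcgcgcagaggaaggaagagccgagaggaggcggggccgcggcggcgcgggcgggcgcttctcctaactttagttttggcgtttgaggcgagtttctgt
WWTR1, chr3:149658026-149658275, minus strand: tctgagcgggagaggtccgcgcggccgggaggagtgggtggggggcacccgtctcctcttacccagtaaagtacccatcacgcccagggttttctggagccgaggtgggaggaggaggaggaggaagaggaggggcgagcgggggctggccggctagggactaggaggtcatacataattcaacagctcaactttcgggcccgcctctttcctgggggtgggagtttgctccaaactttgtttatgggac
The motif in YAP1 began 162 bases before the start. The WWTR1 window shown and a second one of this gene held no such letters, which says nothing of more distant sites. Promoter windows of TEAD1 and TEAD4 were not used here.

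VGLL3 was by far the most abundant of the factors, and TAZ mRNA was the scarcest per kb of exon. To compare genes, CPM were divided by exon length in kilobases. Over the 9 samples the mean was 308 CPM per kb for VGLL3, 27.1 for TEAD2, 26.9 for TEAD1, 15.4 for YAP1, 10.1 for TEAD3, 8.01 for VGLL4, 7.10 for TEAD4 and 6.05 for WWTR1. VGLL3 exceeded TEAD2 in 9 of 9 samples and TEAD1 exceeded YAP1 in 9 of 9. The order of the other neighbours changed between samples: TEAD2 was above TEAD1 in 4 of 9 samples, YAP1 above TEAD3, TEAD3 above VGLL4 and VGLL4 above TEAD4 in 7 of 9 each, and TEAD4 above WWTR1 in 6 of 9. Without division by length, VGLL3 ranked 7 among all 20575 genes by mean CPM and took 0.353% of all counted reads, while per kb it ranked 114 among 19474 genes with a length. YAP1 ranked 3973 and WWTR1 7100 per kb. The order of the scarcer members rests on the length used: WWTR1 has 5291 exonic bases, 1200 of them coding, and TEAD4 has 1808 and 1302. Per coding length WWTR1 would not keep the last place. Each member was read at least 154 times in every sample.

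At the thresholds used, none of the 8 measured factors passed in any of the 3 comparisons. The study's Methods set a threshold of 0.05 on the unadjusted p together with a log2 change of 0.58 or more either way. In limma, 0 of 8 members passed it in siLATS1 against siControl, where it was passed by 2.33% of 12901 tested genes upward and 0.589% downward. It was 0 of 8 in siLATS2 against siControl, beside 0.217% of genes upward and 0.0543% downward, and 0 of 8 in siLATS1 against siLATS2, beside 1.34% and 0.519%. At an adjusted p under 0.05 the members again numbered 0 of 8 in each comparison, beside 0.101% of all genes in siLATS1 against siControl and 0% in both others. At an unadjusted p under 0.05 alone, 0, 0 and 1 members passed in limma, beside 746, 110 and 505 of the 12901 tested genes. The 1 member was WWTR1 in siLATS1 against siLATS2. In edgeR and DESeq2 on the recovered reads, 0 members passed the unadjusted threshold with its fold requirement, and 0 passed the adjusted one. Without the fold requirement, WWTR1 was past the unadjusted limit in siLATS1 against siLATS2 in both tests. In DESeq2 it was also past that limit in siLATS1 against siControl. No other member was past it in these tests. The median log2 fold change of the members was 0.08, -0.09 and 0.02, beside medians over all tested genes of 0.02, 0.03 and -0.03. The 95% intervals leave room for sizeable changes: the standard errors ran from 0.14 for VGLL4 to 0.58 for TEAD3 on the log2 scale.

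**Figure D1:**
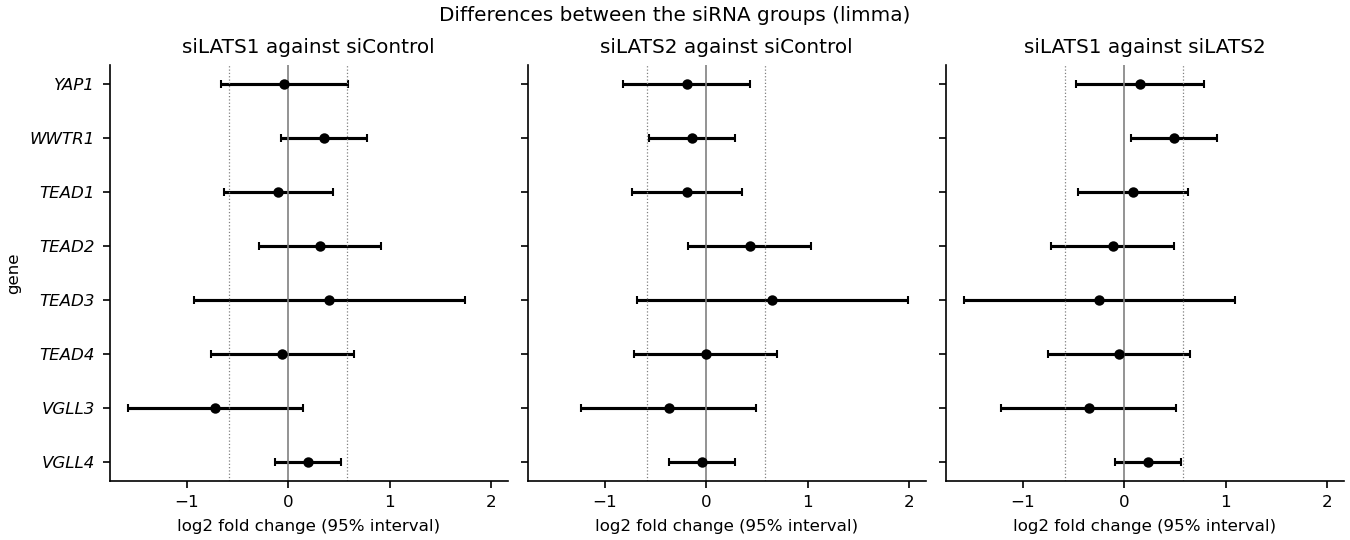
log2 fold change of each gene with its 95% interval from limma, in the 3 comparisons. Solid lines mark 0 and dotted lines the fold threshold of 0.58 either way. Only the interval of WWTR1 in siLATS1 against siLATS2, 0.07 to 0.91, lies wholly on one side of 0.

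Of the co-activators, WWTR1 was higher in siLATS1 than in siLATS2 before adjustment over all genes, in the fit of all 9 samples. YAP1 was not separated between any groups. YAP1 stood at 126, 68.9 and 83.3 CPM in siControl, at 112, 76.3 and 78.0 in siLATS1, and at 71.9, 101.5 and 66.1 in siLATS2. The ranges overlapped throughout, and the first siControl and first siLATS1 samples were the highest of the 9. The log2 fold change of siLATS1 from siControl was -0.04 (95% interval -0.67 to 0.59) and that of siLATS2 was -0.19 (-0.82 to 0.43), so a change of YAP1 mRNA as large as the fold threshold lay within both intervals. WWTR1 stood at 37.2, 26.2 and 27.5 CPM in siControl, at 43.2, 36.9 and 35.5 in siLATS1, and at 27.7, 30.04 and 23.8 in siLATS2. Every siLATS1 sample lay above every siLATS2 sample. Against siControl the siLATS1 samples overlapped in 1 value, that of siControl replicate 1.

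The difference in WWTR1 between siLATS1 and siLATS2 was 0.49 ± 0.18 on the log2 scale (SE, n = 3 each), a fold of 1.40 with an interval of 1.05 to 1.88. Its unadjusted p in limma was 0.0280 and its adjusted p was 1. The log2 difference stayed under the threshold of 0.58. Against siControl the log2 fold change in siLATS1 was 0.35 ± 0.18 (adjusted p = 0.979 in limma), and without siControl replicate 1 it was 0.49 ± 0.16 (adjusted p = 0.274). In siLATS2 against siControl it was -0.14 ± 0.18. In siLATS1 against siLATS2 the groups of 2 members, WWTR1 and VGLL4, did not overlap, beside 12.4% of all tested genes. The groups of 0 members were apart in siLATS1 against siControl, beside 8.48% of genes, and of 0 in siLATS2 against siControl, beside 3.51%.

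The ratio of TAZ to YAP mRNA was higher in every siLATS1 sample than in every siControl sample. From the deposited CPM, with 1 added to each, the ratio of WWTR1 to YAP1 was 0.3004, 0.389 and 0.338 in siControl, 0.390, 0.490 and 0.461 in siLATS1, and 0.394, 0.303 and 0.369 in siLATS2. The closest pair of siLATS1 and siControl samples, 0.390 and 0.389, all but touched, and the siLATS2 samples overlapped both groups. The mean log2 ratio was -1.17 ± 0.17 in siLATS1 and -1.55 ± 0.19 in siControl (SD, n = 3 each). Their difference was 0.39, with a two-sided exact permutation p of 0.1, the smallest that 3 against 3 samples allow. Against siLATS2 the difference was 0.33 (exact permutation p = 0.2), and between siLATS2 and siControl it was 0.05 (exact permutation p = 0.7). No value can reach 0.05 in this design, with or without adjustment over the 3 comparisons. In each group the lowest ratio came from the sample with the lowest GC index, siControl replicate 1, siLATS1 replicate 1 and siLATS2 replicate 2, and the part of the index in the ratio was not tested.

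TEAD1 and TEAD2 together made up most of the TEAD mRNA. The summed TEAD level was 68.6 ± 7.26 CPM per kb in siControl, 71.6 ± 6.27 in siLATS1 and 73.7 ± 1.72 in siLATS2 (SD, n = 3 each). TEAD1, a broadly expressed TEAD, held 64.1%, 31.1% and 35.5% of this sum in siControl, 44.7%, 41.2% and 27.5% in siLATS1, and 32.4%, 40.9% and 28.8% in siLATS2. TEAD2 held 25.7%, 38.5% and 34.9% in siControl, 36.96%, 33.9% and 46.5% in siLATS1, and 42.3%, 36.2% and 44.2% in siLATS2. The first siControl sample stood apart from every other in both shares, and the groups overlapped. TEAD3 held 3.68% to 17.4% and TEAD4 6.53% to 13.5% over the 9 samples, both lowest in siControl replicate 1. The TEAD1 share differed by -5.78 percentage points between siLATS1 and siControl (exact permutation p = 0.8) and by -9.53 between siLATS2 and siControl (p = 0.6, exact). Without siControl replicate 1 these differences were 4.50 and 0.75 points. The level of the shares rests on the lengths used: per kb of coding sequence TEAD1 held 72.6 ± 12.9% in siControl instead of 43.6 ± 17.9% (SD, n = 3).

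**Figure D2:**
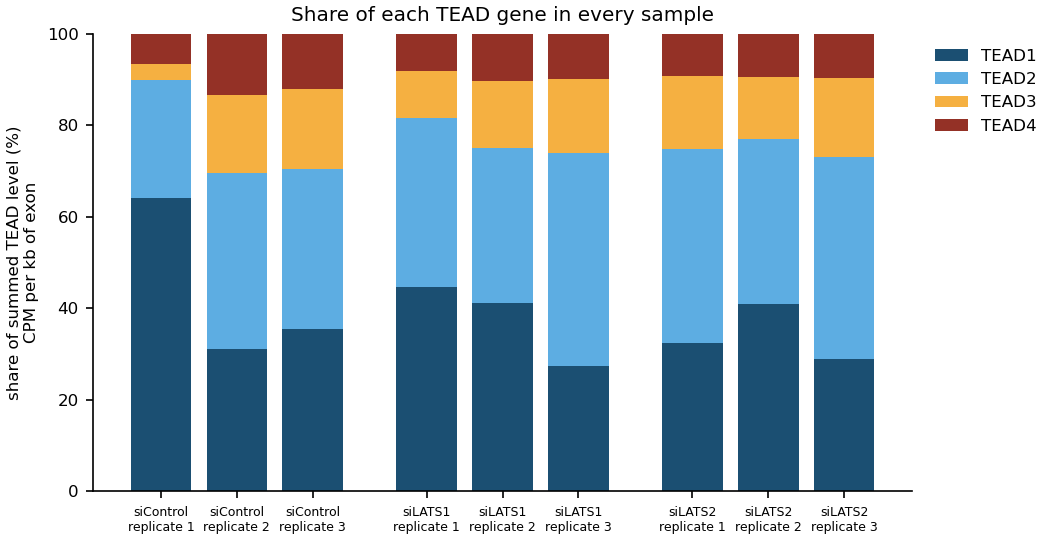
Share of TEAD1, TEAD2, TEAD3 and TEAD4 in their summed level (CPM per kb of exon) in each sample, 1 bar per sample, grouped by siRNA. The TEAD1 share is 64.1% in siControl replicate 1 and between 27.5% and 44.7% in the other samples.

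By gene, TEAD levels overlapped between the groups. TEAD1 stood at 374, 217 and 253 CPM in siControl, at 304, 264 and 209 in siLATS1, and at 232, 285 and 211 in siLATS2. TEAD2, best known from embryonic tissue, stood at 41.5, 74.4 and 68.9 CPM in siControl, at 69.6, 60.4 and 98.0 in siLATS1, and at 83.8, 70.0 and 89.5 in siLATS2. For TEAD1 the highest of the siControl values, and for TEAD2 the lowest, came from replicate 1. TEAD3, well known from placenta, stood at 6.76, 37.3 and 39.0 CPM in siControl, at 21.8, 29.3 and 38.7 in siLATS1, and at 36.0, 29.5 and 39.7 in siLATS2. TEAD4, known for its part in the trophectoderm of the embryo and the scarcest member by CPM, stood at 7.12, 17.5 and 16.2 CPM in siControl, at 10.3, 12.4 and 14.0 in siLATS1, and at 12.3, 12.4 and 13.3 in siLATS2. TEAD3 was 5.04-fold lower in siControl replicate 1 than the mean of the other siControl samples on the log2(CPM + 1) scale. The log2 fold change of TEAD3 between siLATS1 and siControl was 0.40 ± 0.58 (SE) with all samples and -0.39 ± 0.23 without siControl replicate 1. In siLATS2 against siControl it was 0.65 ± 0.58 and -0.14 ± 0.23. For TEAD4 the siLATS1 difference was -0.06 ± 0.31 with all samples and -0.45 ± 0.16 without that sample (adjusted p = 0.986 and 0.313 in limma). The TEAD2 differences from siControl were 0.31 ± 0.26 in siLATS1 and 0.43 ± 0.26 in siLATS2, and without the sample 0.04 ± 0.20 and 0.15 ± 0.20.

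Among the vestigial-like genes, VGLL3 had its lowest mean in siLATS1 and VGLL4 its highest, with neither difference past the threshold. VGLL3, which binds TEADs without DNA contact of its own, stood at 6787, 3127 and 3771 CPM in siControl, at 3722, 2934 and 1640 in siLATS1, and at 3110, 4332 and 2765 in siLATS2. The groups overlapped, with the highest value in siControl replicate 1 and the lowest in siLATS1 replicate 3. The log2 fold change of siLATS1 from siControl was -0.72 (95% interval -1.58 to 0.14), past the fold threshold but with an unadjusted p in limma of 0.0910. In siLATS2 it was -0.37 (-1.23 to 0.49). Without siControl replicate 1 the siLATS1 value was -0.41 ± 0.33 (SE). VGLL3 passed the unadjusted threshold when siControl replicate 2 (-0.998) or siLATS1 replicate 1 (-0.986) was left out. Of the 12901 tested genes, 141 and 82 passed it downward in these fits. VGLL4 stood at 37.69, 36.0 and 42.7 CPM in siControl, at 44.7, 41.1 and 47.5 in siLATS1, and at 34.7, 40.8 and 37.2 in siLATS2. Its siLATS1 values were all above its siLATS2 values, if by a narrow margin, with a log2 difference of 0.24 ± 0.14 (adjusted p = 1 in limma). Its coefficient of variation within groups was 7.24% to 8.95%, below that of every other member except TEAD4 in siLATS2, at 4.60%.

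The GC-poor and GC-rich members parted along the GC index of the samples. YAP1 was highest in siControl replicate 1, siLATS1 replicate 1 and siLATS2 replicate 2, which had the 3 lowest indices, -2.21, -0.54 and -0.41. TEAD1 had its highest values in siControl replicate 1 and siLATS1 replicate 1 as well. VGLL3 was 1.98-fold higher in siControl replicate 1 than in the mean of the other siControl samples and was lowest in siLATS1 replicate 3, which had the highest index, 0.90. TEAD2, TEAD3 and TEAD4 were lowest in siControl replicate 1. In VGLL4, of middling GC content, siControl replicate 1 differed from the mean of the others by -0.06 on the log2 scale. The index ranged more widely within each group than the group means differed. What set it in these samples was not tested.

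With each sample's trend on exon GC content and exon length removed, an alternative added after the data had been seen, WWTR1 rose in siLATS1. Its corrected log2 values were 4.78, 4.95 and 4.95 in siControl, 5.31, 5.22 and 5.41 in siLATS1, and 4.93, 4.81 and 4.80 in siLATS2. The correction turned siControl replicate 1 from the highest siControl sample for WWTR1 into the lowest. The siLATS1 samples lay above all others, but the share of all genes with groups apart on the corrected scale was not counted. The log2 fold change from siControl was 0.42 ± 0.09 (SE, n = 3 each), a 1.34-fold difference with an adjusted p of 0.0466 in limma, and 1 of 8 members passed beside 1.98% of 12561 genes. Against siLATS2 it was 0.47 ± 0.09 with an adjusted p of 0.0544, and 0 members passed beside 0.581% of genes. With siControl replicate 1 also left out, the limma values were 0.36 ± 0.09 (adjusted p = 0.0406) against siControl and 0.47 ± 0.08 (adjusted p = 0.0139) against siLATS2, with WWTR1 again the 1 member past the threshold, beside 5.45% and 2.66% of all genes. In siLATS2 against siControl WWTR1 differed by -0.05 ± 0.09, and 0 members passed in either version, beside 0% of genes in both. In all these fits the change of WWTR1 was smaller than the fold threshold of 0.58. Over the 22 alternatives to the limma fit, WWTR1 was higher in siLATS1 than in siControl in 22 and past the adjusted threshold in 2. Those 2 were the fits with the trend removed. Among the alternatives planned beforehand the lowest adjusted p was 0.274, in limma without siControl replicate 1. All 22 reuse the same samples, so their shared direction is not separate support.

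VGLL3 changed in the opposite direction under the same correction. Its corrected log2 values were 12.08, 11.90 and 11.94 in siControl, 11.63, 11.49 and 11.001 in siLATS1, and 11.79, 11.90 and 11.68 in siLATS2. The siLATS1 samples lay below all others, again without a share over all genes to set beside it. The log2 fold change from siControl was -0.60 ± 0.16 (SE), which passed the unadjusted threshold downward, as did 0.788% of genes, with an adjusted p of 0.101. It was -0.55 ± 0.17 without siControl replicate 1, just short of the fold threshold, with an adjusted p of 0.0849. Corrected values of the other members did not pass: the siLATS1 difference was 0.02 ± 0.14 for YAP1, -0.05 ± 0.10 for TEAD1, 0.08 ± 0.21 for TEAD2, 0.15 ± 0.17 for TEAD3, -0.33 ± 0.24 for TEAD4 and 0.11 ± 0.14 for VGLL4. TEAD3 also did not overlap between siLATS1 (4.79, 4.90 and 4.87) and siLATS2 (4.99, 5.06 and 4.97) on the corrected log2 scale. LATS1 gave -1.67 ± 0.09 against siControl (adjusted p = 0.000151 in limma). The first siControl sample still stood apart from the other siControl samples after the correction. It was at 6.63 against 5.88 and 5.81 for TEAD2, 4.24 against 4.90 and 4.97 for TEAD3, and 4.54 against 3.77 and 3.66 for TEAD4 on the log2 scale. For TEAD2 and TEAD4 its position was reversed, from the lowest siControl value before the correction to the highest after it. With that sample also left out, TEAD2 differed from siControl by 0.35 ± 0.12 in siLATS1 and 0.36 ± 0.12 in siLATS2 (adjusted p = 0.118 and 0.758 in limma). For YAP1 the standard error was 0.14 after the correction and 0.27 before it, and the corrected interval, -0.31 to 0.34, lay within the fold threshold.

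As among all tested genes, few of the genes around these factors passed the unadjusted threshold. Their lists were chosen with earlier results of these data known, so the counts describe and do not test. Of 13 upstream kinases and adaptors, from MST1 (STK4) to NF2, 0 passed it in any comparison. The shares of all tested genes past it, upward and downward, were 2.33% and 0.589% in siLATS1 against siControl. They were 0.217% and 0.0543% in siLATS2 against siControl, and 1.34% and 0.519% in siLATS1 against siLATS2. The median log2 fold change of these 13 in siLATS1 against siControl was -0.07, beside 0.02 over all tested genes. Of 12 proteins that bind YAP and TAZ or mark them for destruction, 0 passed in any comparison, beside the same shares, with a median of -0.04. PTPN14, a phosphatase that holds YAP in the cytoplasm, stood at 60.7 ± 3.70 CPM in siLATS1, 47.2 ± 1.94 in siControl and 44.2 ± 1.73 in siLATS2 (SD, n = 3 each). Its difference from siControl was 0.36 ± 0.12 on the log2 scale (adjusted p = 0.656 in limma), under the fold threshold. AMOT, a scaffold that retains YAP, stood at 12.7 ± 1.59 CPM in siLATS1 and 8.97 ± 0.47 in siControl (adjusted p = 0.659 in limma). AMOTL1 differed from siControl by 0.20 ± 0.15, and of the upstream genes of lowest p MAP4K4 differed by 0.25 ± 0.13, FRMD6 by -0.23 ± 0.21 and STK4 by -0.19 ± 0.20.

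Of the 22 YAP/TAZ-TEAD target genes listed, 18 were tested, and 1 fell in siLATS1 against siControl, beside 0.589% of all tested genes, and 1 in siLATS1 against siLATS2, beside 0.519%. AXL, FJX1 and FOXF2 were too low to be tested, and LATS2, also on the list, was not analysed here. In both it was CCN1, a secreted matrix protein, at 168 ± 31.7 CPM in siLATS1, 296 ± 21.9 in siControl and 315 ± 21.0 in siLATS2 (SD, n = 3 each). Its log2 fold change in siLATS1 was -0.83 ± 0.16 against siControl and -0.92 ± 0.16 against siLATS2, past the unadjusted threshold in both (adjusted p = 0.161 and 0.204 in limma). With the GC and length trend removed it was -0.85 ± 0.13 against siControl, with an adjusted p of 0.0205. CCN2 differed from siControl by -0.43 ± 0.15, ANKRD1 by -0.51 ± 0.27 and AMOTL2 by -0.12 ± 0.27, and PTPN14, also a target, by the value above. With the trend removed these differences were -0.46 ± 0.15 for CCN2, -0.39 ± 0.12 for ANKRD1 and -0.32 ± 0.08 for AMOTL2 (adjusted p = 0.172, 0.155 and 0.0760 in limma). In siLATS1 the list's median was -0.08 beside 0.02 over all tested genes, and in siLATS2 against siControl, where 0 passed, it was -0.05 beside 0.03.

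Likeness of pattern was measured as the root mean square (RMS) difference of log2(CPM + 1), centred on the mean of the 9 samples. Between YAP1 and WWTR1 it was 0.23, smaller than the RMS of YAP1 (0.31) or of WWTR1 (0.26) about its own mean, though many genes were nearer to each. The genes nearest YAP1 were CDKN1B (0.05), PDGFD (0.06) and NHLRC3 (0.06). These 3 genes have exons of 42.3%, 41.2% and 39.8% GC, beside 43.6% for YAP1. TEAD1 ranked 211 in nearness to YAP1 (0.12) and WWTR1 ranked 3673. The genes nearest WWTR1 were PIK3AP1 (0.07), IFT70A (0.08) and ARHGEF26 (0.08), and YAP1 ranked 1688. PIK3AP1 and ARHGEF26 have exons of 46.9% and 46.6% GC, beside 42.3% for WWTR1, and no value was at hand for IFT70A. The part of GC content in these likenesses was not tested.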

How the data were processed

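RNA of Huh7 cells was sequenced as single-end 81-mers. The libraries are described as total RNA (TruSeq Stranded, Ribozero), while the study's Methods name a total RNA kit but speak of sequencing poly-A+ RNA. Which of these holds is not settled by the sources. The authors aligned reads with STAR to hg19 (GRCh37), keeping unique hits, counted them over RefSeq exons with qCount of QuasR, and deposited CPM values, each gene's reads relative to all counted reads of the sample. Versions of the aligner and the strand of counting are not given in the sources used here. The deposited CPM values of a sample were whole multiples of 1 read for 100% of values (tolerance 0.1 reads), so read counts were recovered from them. The row without a gene name was left out.

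Samples were grouped by the siRNA in the labels. The study's Methods describe the replicates as biological triplicates, without saying how the cultures were separated, and p-values measure the spread between these samples. CPM were scaled by TMM (edgeR 4.0.16), and the 12901 genes that reached 1 CPM in 3 or more samples were tested with limma 3.58.1 (R 4.3.3) on log2(CPM + 1), with a mean-variance trend and all 9 samples in 1 fit. Fold changes are on that scale and understate changes of low genes. p-values were adjusted by Benjamini-Hochberg over all genes tested. Ratios and shares were compared by two-sided exact permutation tests (scipy 1.17.1). Alternatives were edgeR's quasi-likelihood test and DESeq2 1.42.0 on the recovered reads, other scalings, pseudocounts, filters and sample sets, and a replicate block. Removal of each sample's lowess trend (span 0.3) on exon GC content and length, taken from the GRCh37 annotation for 97.4% of tested genes, was added after the data were seen. The limma fits with and without this removal were also run on simulated data, and the outcome is not given here.

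The genes described and the lists around them were chosen with earlier results of these data known. Named from each list were the 3 tested genes of lowest p in siLATS1 against siControl, with CCN1, CCN2, ANKRD1 and AMOTL2 in any case, and for YAP1 and WWTR1 the 3 genes of nearest pattern over the 9 samples. Sequences came from the study's reagent list and RefSeq.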

Additional observations from a re-analysis of the deposited data

How the results depend on the processing

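Over 22 alternatives to each of the 24 log2 fold changes of the members, 493 values kept their direction and their side of the unadjusted threshold, 32 turned direction without passing it and 3 passed it. The members past it in siLATS1 against siControl numbered 0 to 1 when samples were left out in turn and 1 with the GC and length trend removed, each time VGLL3. Beside it, 445 genes passed without siControl replicate 2, 362 without siLATS1 replicate 1 and 405 with the trend removed. The cause of these shifts was not tested. The all-gene counts of the 3 comparisons (376, 35 and 240) were 730, 69 and 308 without siControl replicate 1, with 339 genes higher and 391 lower in the first, where 300 were higher and 76 lower with all samples. The first was 234 without siLATS1 replicate 3. The second was 11 without siLATS2 replicate 3, 68 without siLATS2 replicate 2, 55 without siControl replicate 2, 54 without siControl replicate 3, 22 with only the 6 samples compared and 63 with the trend and siControl replicate 1 both removed. At a pseudocount of 0.1 the counts were 504, 72 and 309, in edgeR 452, 68 and 328, and in DESeq2 527, 70 and 345. At the adjusted threshold, edgeR called 5, 0 and 0 genes and DESeq2 188, 0 and 117.

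Further values turned direction, all from within 0.1 of 0 except TEAD3 (0.40 with all samples). Without scaling, the log2 fold change in siLATS1 against siControl was 0.0506 for YAP1 and 0.0236 for TEAD4, and TEAD4 was 0.007 in siLATS2 against siControl (0.0016 at a pseudocount of 0.1) and 0.0167 in siLATS1 against siLATS2. With the trend removed, YAP1 was 0.015 in siLATS1 against siControl and TEAD4 was 0.0759 in siLATS1 against siLATS2. With siControl replicate 1 also left out, YAP1 was 0.0832, TEAD1 0.0029 and TEAD3 -0.0757 in siLATS1 against siControl, and TEAD4 0.0767 in siLATS1 against siLATS2. The cause was not tested.

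Some differences also turned direction when single samples were dropped, and their lowest and highest values follow. In siLATS1 against siControl the log2 fold changes were YAP1 -0.27 to 0.19, TEAD1 -0.31 to 0.12, TEAD3 -0.39 to 0.79 and TEAD4 -0.45 to 0.11, and the shares of summed TEAD in percentage points TEAD1 -12.03 to 4.50, TEAD3 -3.57 to 3.28 and TEAD4 -3.35 to 0.11. For siLATS2 and siControl the fold changes (log2) were YAP1 -0.45 to 0.0334, TEAD1 -0.42 to 0.0232, TEAD3 -0.14 to 1.04, TEAD4 -0.40 to 0.15, VGLL4 -0.16 to 0.0112 and LATS1 -0.52 to 0.0189, and the shares of summed TEAD in percentage points TEAD1 -15.78 to 0.75, TEAD3 -1.63 to 5.23 and TEAD4 -3.32 to 0.14. In the same comparison the log2 ratio of WWTR1 to YAP1 was -0.0374 to 0.16. In siLATS1 against siLATS2 the log2 fold changes were YAP1 -0.0324 to 0.34, TEAD1 -0.043 to 0.25, TEAD2 -0.30 to 0.0308 and TEAD4 -0.14 to 0.0474, and the shares of summed TEAD in percentage points TEAD2 -5.45 to 0.83 and TEAD4 -0.49 to 0.63.

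The same replicate numbers appear in every group, but same-numbered samples did not all deviate together (r of -0.874 to 0.92 over 9 pairs). Samples numbered 3 did, with r of 0.834 to 0.864, while differently numbered pairs reached 0.872 (siControl replicate 1 and siLATS2 replicate 2). These deviations include each sample's GC and length trend, so whether the numbers mark shared cultures cannot be told from them. With a replicate block, 0 members passed in each comparison, the all-gene counts were 400, 46 and 256, and 0 genes passed the adjusted threshold in each. The difference in log2 ratio of WWTR1 to YAP1 stayed at 0.39, 0.05 and 0.33, with a smallest possible exact permutation p of 0.25 under the block.

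With 3 samples a group and 1 sample apart from the rest, limma's intervals for YAP1, WWTR1, TEAD1, TEAD2, TEAD3, TEAD4 and VGLL3 in siLATS1 against siControl all reach past a log2 change of 0.58, so a change of that size was not excluded by that fit.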
